A study of Mus musculus with 6 samples.

Results

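Fatty acid uptake and beta-oxidation was examined as a group of 10 genes, chosen by name out of the 33971 genes in the table: Cd36, Cpt1a, Cpt1b, Cpt2, Slc25a20, Acadm, Acadl, Acadvl, Hadha and Hadhb. RNA was sequenced from articular cartilage of WT mice, in 3 libraries at 2 months of age and 3 at 18 months, and no treatment or engineered allele is given for either age. The methods name male mice, but Xist, the RNA that coats the inactive X chromosome of female cells, was at 88239 counts or more in each 2-month library and at most 30 in each 18-month library, so that sex and age cannot be told apart here. Whether a library came from 1 animal or from several is not stated, and p-values then measure the spread between these libraries. Library totals lay between 48171507 and 59085179 counts.

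Long-chain fatty acids enter cells with the help of the scavenger receptor CD36 and are joined to coenzyme A. The carnitine shuttle then carries the acyl groups into mitochondria: CPT1 on the outer membrane makes acylcarnitine, the carrier SLC25A20 moves it across the inner membrane, and CPT2 restores acyl-CoA. In the matrix, acyl-CoA dehydrogenases of different chain-length preference start each round of beta-oxidation, and the trifunctional protein built from HADHA and HADHB completes it for long chains. Chondrocytes, which live in a tissue without blood vessels, are known mainly for glycolysis.

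All 10 genes were tested with edgeR's quasi-likelihood test, and calls needed an adjusted p (Benjamini-Hochberg) under 0.05 together with a log2 fold change past 1 in size. By this rule 3 of the 10, Cd36, Cpt1a and Acadl, rose at 18 months and Cpt1b fell, against 14.9% of the 20397 genes tested that were called higher and 21.3% called lower. The adjusted p alone was under 0.05 for 7 of the 10, against 51.3% of all genes tested. The 3 that passed it without reaching the fold limit were Cpt2, Slc25a20 and Hadha, with higher values at 18 months. In CPM (counts scaled by the library total), 8 of the 10 had every 18-month library above every 2-month library, as did 35.6% of all genes tested, and 1, Cpt1b, had every 18-month library below, as did 32.9%. The median log2 fold change of the 10 was 0.54, and that of all genes tested was -0.02.

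**Figure D1:**
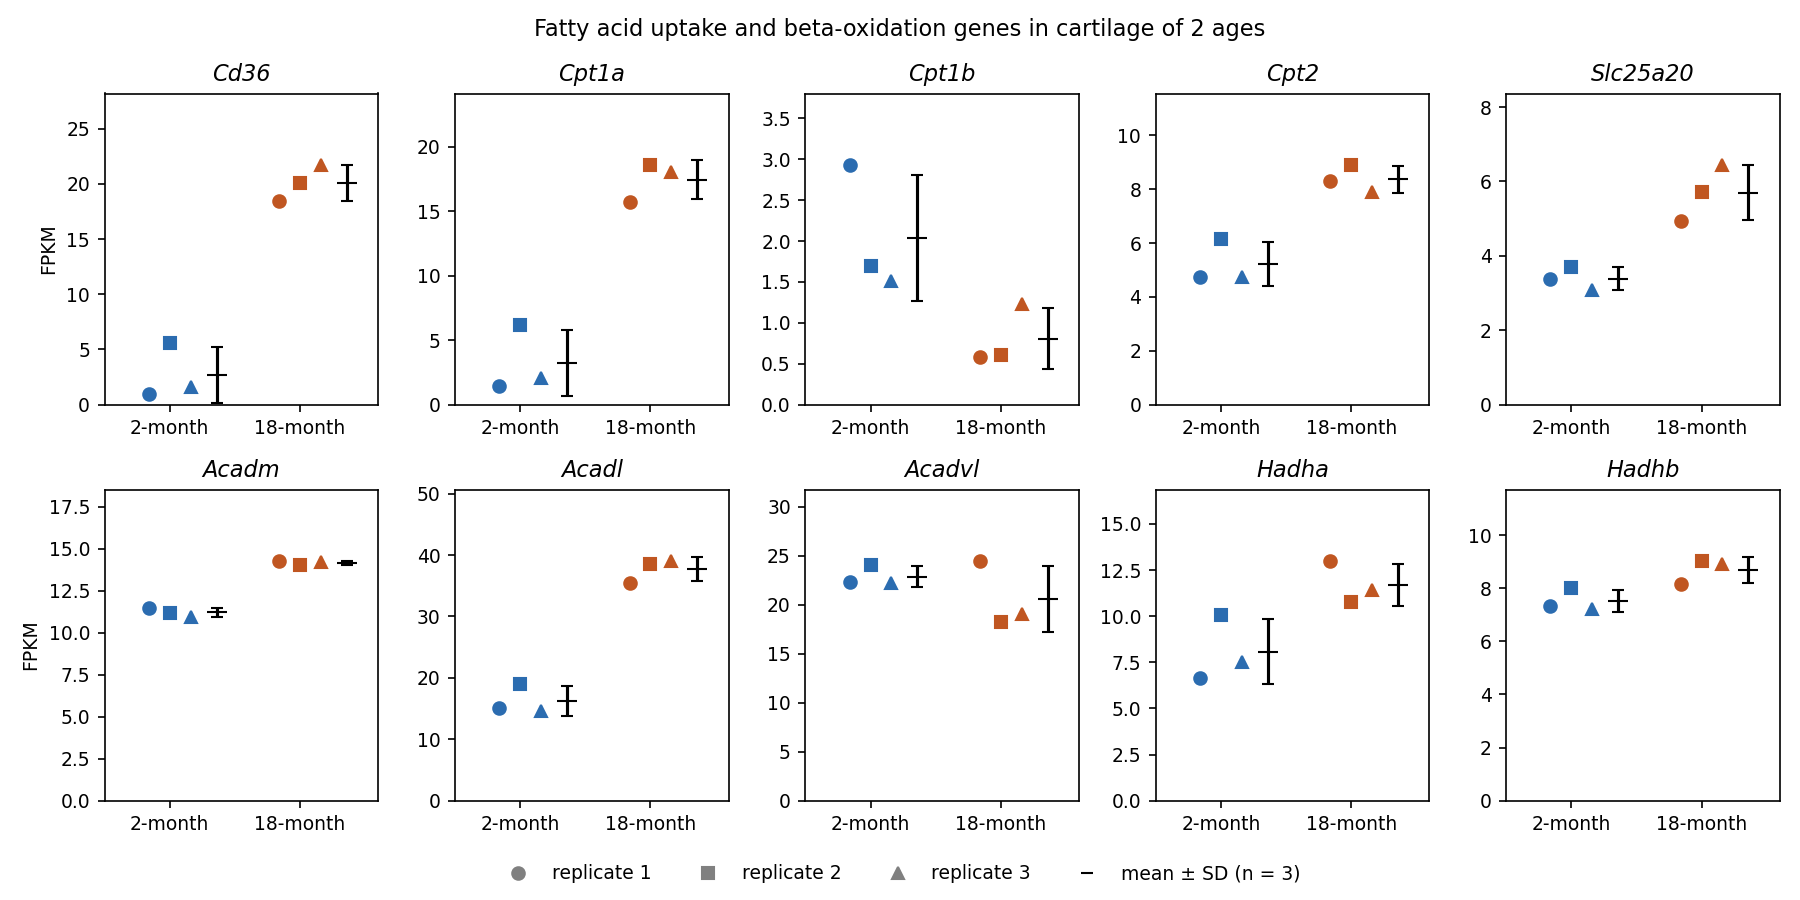
FPKM (fragment counts scaled by gene length and by library) of the 10 genes, 1 panel per gene, with 1 point per library (blue, 2-month; orange, 18-month) and the mean ± SD of 3 libraries beside them. In Cd36 and Cpt1a the 2-month replicate 2 (square) stood at 5.59 and 6.21, above the other 2-month libraries and below every 18-month library, while the ages overlapped in Acadvl.

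The tissue label was checked against lists of marker genes. The 16 chondrocyte genes together held 4.58% to 7.08% of each 2-month total and 0.0635% to 0.170% of each 18-month total. All 16 were called lower at 18 months, beside 21.3% of all genes tested, and none was without a count at either age. The 14 neutrophil genes took 0.00128% and 0.00587% in 2-month replicates 1 and 3, 0.375% in 2-month replicate 2 and 4.21% to 4.53% at 18 months. The erythroid genes went from 0.0247% to 0.663% up to 2.71% to 3.58%, and the megakaryocyte and platelet genes from 0.000739% to 0.00735% up to 0.142% to 0.214%. By gene, 0 of the 14 neutrophil genes and 3 of the 10 erythroid genes tested were called higher. Of the 9 megakaryocyte and platelet genes 8 were, beside 14.9% of all genes tested. The 18-month libraries thus had a lower share of chondrocyte genes and a higher share of blood-cell genes, and 2-month replicate 2 stood between the ages in these blood-cell lists. It was not between them in the chondrocyte list, where its 7.08% was the highest of the 6 libraries. Its share of osteoblast and osteocyte genes, 1.74%, was also the highest. These shares move with age beside every result below, and their part in those results was not tested. In bulk samples, fewer cells of a type and less RNA per cell cannot be told apart.

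Uptake was represented by Cd36 (ENSMUSG00000002944), which lies on chromosome 5 at 17781690 to 17888801 on the minus strand. Its FPKM was 0.924, 5.59 and 1.57 in the 2-month libraries and 18.5, 20.1 and 21.7 in the 18-month libraries. Every 18-month library was above every 2-month library, and 2-month replicate 2 was the highest of its age. The mean rose from 2.69 ± 2.53 to 20.1 ± 1.59 FPKM (SD, n = 3), a 7.27-fold difference with a log2 fold change of 2.86 (SE 0.66, adjusted p = 0.0148). Without 2-month replicate 2 the log2 fold change was 3.89 (adjusted p = 0.000222), and without 2-month replicate 3 it was 2.61 and no longer called (adjusted p = 0.0545). On the log2 scale, 2-month replicate 2 lay 54.0% of the way from the mean of the other 2-month libraries to the 18-month mean.

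CPT1 is the step at which malonyl-CoA restrains entry of fatty acids into mitochondria, and its isoforms have different tissue patterns: CPT1A is the liver form and CPT1B the muscle form. Cpt1a (ENSMUSG00000024900), on chromosome 19 at 3322334 to 3385733 on the plus strand, had an FPKM of 1.45, 6.21 and 2.05 at 2 months and 15.8, 18.6 and 18.1 at 18 months. The ages did not overlap, and as in Cd36 the 2-month replicate 2 was the highest of its age, 54.9% of the way to the 18-month mean. Mean FPKM rose from 3.24 ± 2.59 to 17.5 ± 1.51 (SD, n = 3), 5.26-fold, with a log2 fold change of 2.40 (SE 0.54, adjusted p = 0.0137). The log2 fold change was 3.22 without 2-month replicate 2 (adjusted p = 0.000180) and 2.18 without 2-month replicate 3, where the call was lost (adjusted p = 0.0511). Cd36 and Cpt1a followed each other over the 6 libraries, with a Pearson r of 0.999 in log2 CPM, as a description of libraries that fall into separate ages.

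The sequences upstream of the 3 genes that rose are shown here. They are the 250 bases before each RefSeq start in GRCm38.p6, on the strand of the gene, with GC boxes (GGGCGG, or CCGCCC on the other strand) and CCAAT in capitals. The window of Cd36 is chr5:17835897-17836146 (minus strand), inside the annotated gene and outside its exons. That of Cpt1a is chr19:3323051-3323300 (plus strand), also inside the annotated gene, which starts at 3322334, with 16 bases in an exon of Cpt1a. That of Acadl is chr1:66863310-66863559 (minus strand), outside annotated exons.
Cd36: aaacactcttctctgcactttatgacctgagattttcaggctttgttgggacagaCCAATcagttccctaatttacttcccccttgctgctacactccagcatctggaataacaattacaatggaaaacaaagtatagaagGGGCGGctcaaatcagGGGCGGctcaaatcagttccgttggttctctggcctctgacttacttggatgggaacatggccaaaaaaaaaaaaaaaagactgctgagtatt
Cpt1a: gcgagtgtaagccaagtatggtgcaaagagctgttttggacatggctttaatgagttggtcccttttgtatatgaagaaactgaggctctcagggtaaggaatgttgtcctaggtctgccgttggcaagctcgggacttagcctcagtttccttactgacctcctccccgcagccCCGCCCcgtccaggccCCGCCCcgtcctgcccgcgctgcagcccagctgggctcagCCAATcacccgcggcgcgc
Acadl: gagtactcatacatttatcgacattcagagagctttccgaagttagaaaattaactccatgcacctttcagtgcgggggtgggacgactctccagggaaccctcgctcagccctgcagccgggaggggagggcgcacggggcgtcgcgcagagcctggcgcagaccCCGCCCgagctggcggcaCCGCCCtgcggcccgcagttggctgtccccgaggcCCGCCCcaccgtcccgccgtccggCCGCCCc

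A promoter window of 250 bases before and 50 after the start was at hand for 9 of the 10 genes, with Cpt1b the exception. A direct repeat of AGGTCA with 1 base between the copies, the kind of element bound by PPAR and RXR receptors, was in none of the 9 windows on either strand and in 13 of 32851 windows of all genes (0.04%). TCAAGGTCA, the element of the estrogen-related receptors, which shares the letters AGGTCA with that repeat, was in none of the 9 and in 0.423% of all windows. The cyclic AMP response element TGACGTCA was in none of the 9 and in 1.79% of all. The GC box was in 7 of the 9 windows, all but those of Acadm and Acadvl, and in 35.7% of all windows. CCAAT was in 2 of the 9, those of Cd36 and Cpt1a shown above, and in 37.4% of all. Such matches describe the letters only.

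Cpt1b (ENSMUSG00000078937), on chromosome 15 at 89416405 to 89425863 on the minus strand, had an FPKM of 2.93, 1.69 and 1.51 at 2 months and 0.580, 0.611 and 1.23 at 18 months. Every 18-month library was below every 2-month library, though 18-month replicate 3 came close to the lowest of them. The mean fell from 2.04 ± 0.770 to 0.808 ± 0.369 FPKM (SD, n = 3), 2.66-fold, with a log2 fold change of -1.41 (SE 0.45, adjusted p = 0.0427). The call was lost without 2-month replicate 1 (-1.03, adjusted p = 0.109), 2-month replicate 3 (-1.57, adjusted p = 0.0677), 18-month replicate 1 (-1.20, adjusted p = 0.116) or 18-month replicate 2 (-1.24, adjusted p = 0.131). The skeletal muscle genes took 0.0112%, 0.0199% and 0.0200% of the counts in the 2-month libraries and 0.00124%, 0.00132% and 0.00111% in the 18-month libraries. Within each age, the library with the highest Cpt1b had the lowest muscle share. Of the 11 muscle genes tested, 8 were called lower, beside 21.3% of all genes tested. Of the 13 in the table, 3 had no count at 18 months, and the part of muscle RNA in the Cpt1b result was not tested.

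The value of Cpt1b is also uncertain because another annotated gene covers it. Gm44502 (ENSMUSG00000116461) is a read-through gene on the same strand, from 89416405 to 89429696, which spans all 9459 bases of Cpt1b and reaches the neighbouring Chkb. Cpt1b had 543, 334 and 288 counts at 2 months and 133, 131 and 267 at 18 months, while Gm44502 had 90, 242 and 474 and then 749, 336 and 182. Within each age, the library with the most counts of Cpt1b had the fewest of Gm44502, and Cpt1b took from 37.8% to 85.8% of the counts of both genes at 2 months and from 15.1% to 59.5% at 18 months. Their sum was 13.1, 11.1 and 15.8 CPM at 2 months and 14.9, 8.46 and 8.06 at 18 months, which overlap. The sum, tested after the data were seen, had a log2 fold change of -0.43 (SE 0.30, adjusted p = 0.261), or -0.56 without 2-month replicate 2 (adjusted p = 0.147), and was not called. How the counting assigned reads that lie in both genes is not given in the sources used here.

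**Figure D2:**
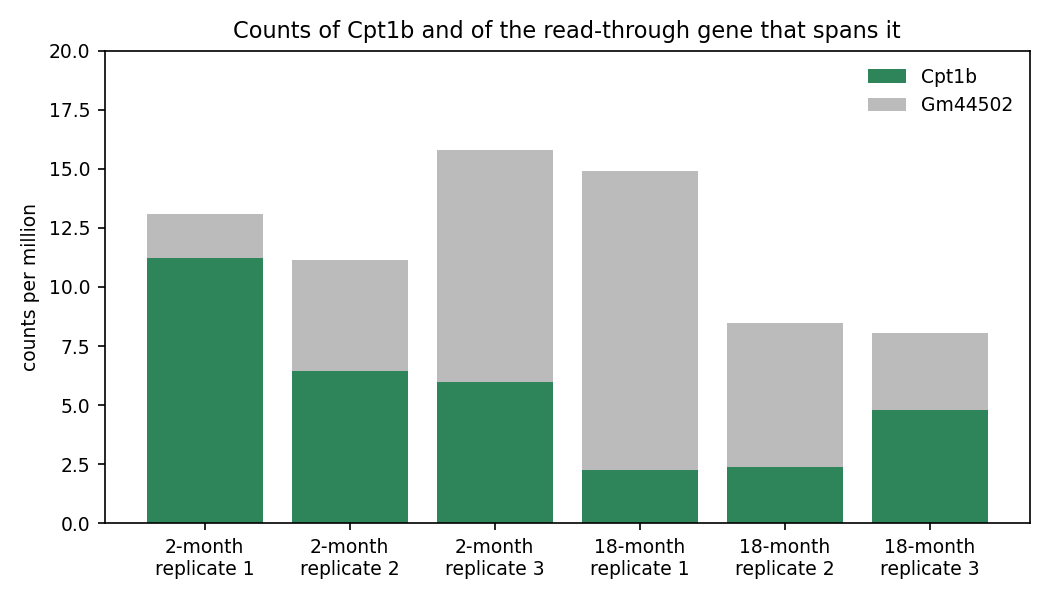
CPM of Cpt1b (green) and of the read-through gene Gm44502 that spans it (grey), stacked, in each library. The green part is lower in every 18-month library, while the whole bar overlaps between the ages, from 11.1 to 15.8 at 2 months and from 8.06 to 14.9 at 18 months.

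As a description, Cpt1a made up 33.1%, 78.6% and 57.6% of the summed FPKM of Cpt1a and Cpt1b at 2 months and 96.5%, 96.8% and 93.6% at 18 months. The ratio of Cpt1b to Cpt1a FPKM was 2.02, 0.272 and 0.737 at 2 months and 0.0368, 0.0329 and 0.0682 at 18 months, without overlap. Its mean log2 was 4.09 lower at 18 months, a difference of -4.09 with an exact two-sided permutation p of 0.1, the smallest that 3 against 3 libraries allow. Without 2-month replicate 1 the difference was -3.36, and without 2-month replicate 2 it was -4.81. The part of this ratio that rests on Cpt1b carries the uncertainty of the overlapping gene.

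The rest of the shuttle moved far less. Slc25a20 (ENSMUSG00000032602), the carnitine-acylcarnitine carrier of the inner membrane, had an FPKM of 3.39, 3.70 and 3.08 at 2 months and 4.95, 5.73 and 6.43 at 18 months. Every 18-month library was higher, and 2-month replicate 2 was close to the others of its age. The means were 3.39 ± 0.314 and 5.70 ± 0.744 FPKM (SD, n = 3), with a log2 fold change of 0.68 (SE 0.14, adjusted p = 0.0118), under the fold limit. Cpt2 (ENSMUSG00000028607), which rebuilds acyl-CoA on the matrix side, had 4.74, 6.17 and 4.75 FPKM at 2 months and 8.32, 8.89 and 7.91 at 18 months. Here 2-month replicate 2 was again the highest of its age and the ages stayed apart. The log2 fold change of Cpt2 was 0.61 (SE 0.13, adjusted p = 0.0118), 1.53-fold between means of 5.22 ± 0.822 and 8.37 ± 0.494 FPKM (SD, n = 3). After rescaling to TPM (FPKM brought to the same total in every library), where the median of all genes moved to -0.33, neither passed, at 0.31 for Slc25a20 (adjusted p = 0.139) and 0.25 for Cpt2 (adjusted p = 0.242). Without 2-month replicate 3 or 18-month replicate 2 the adjusted p of Cpt2 was 0.0518 and 0.0534.

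Of the dehydrogenases, Acadl (ENSMUSG00000026003), which acts on long and branched chains, rose. On chromosome 1 at 66830839 to 66863277 on the minus strand, it had an FPKM of 15.1, 19.0 and 14.5 at 2 months and 35.4, 38.6 and 39.0 at 18 months. The lowest 18-month library was well above the highest 2-month library. Means were 16.2 ± 2.40 and 37.7 ± 1.96 FPKM (SD, n = 3), 2.21-fold, with a log2 fold change of 1.15 (SE 0.11, adjusted p = 0.00153). It was called in each of the 6 fits that left out a library, with a log2 fold change from 1.10 to 1.25. With TPM its log2 fold change was 0.79, under the fold limit (adjusted p = 0.00608).

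Acadm (ENSMUSG00000062908), the medium-chain enzyme, had 11.5, 11.2 and 11.0 FPKM at 2 months and 14.3, 14.0 and 14.2 at 18 months. Both ages were tight and did not overlap, at means of 11.2 ± 0.258 and 14.2 ± 0.109 FPKM (SD, n = 3). The log2 fold change was 0.26 (SE 0.09, adjusted p = 0.0585) and did not pass, and with TPM it was -0.10 (adjusted p = 0.431), above the median of all genes under that scaling. Acadvl (ENSMUSG00000018574), the very-long-chain enzyme of the inner membrane, had 22.3, 24.1 and 22.2 FPKM at 2 months and 24.4, 18.2 and 19.1 at 18 months. Here the ages overlapped, since 18-month replicate 1 was the highest of all 6 libraries. Its log2 fold change was -0.23 (SE 0.12, adjusted p = 0.163), between means of 22.9 ± 1.04 and 20.6 ± 3.36 FPKM (SD, n = 3). It was -0.60 with TPM (adjusted p = 0.0257) and -0.35 without 18-month replicate 1 (adjusted p = 0.0359), past the adjusted p and under the fold limit in both. Dvl2, on the opposite strand, overlaps Acadvl over 2119 bases and had 1460 to 1610 counts at 2 months and 996 to 1049 at 18 months, and whether the counting used strand is not stated.

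Among these 3 dehydrogenase genes, the shares of FPKM therefore differed between the ages, as a description chosen after the values were seen. Acadl took 30.9%, 35.0% and 30.5% of the summed FPKM of the 3 genes at 2 months and 47.8%, 54.4% and 54.0% at 18 months. Acadvl took 45.6%, 44.4% and 46.5% and then 33.0%, 25.7% and 26.4%. Acadvl held the largest share in each 2-month library and Acadl in each 18-month library, while the sum of the 3 went from 47.7 to 54.2 FPKM up to 70.9 to 74.1 FPKM. Acadm stayed between 19.2% and 23.5% in the 6 libraries. Other dehydrogenase genes are not in this sum, and the shares depend on the length used for FPKM. In CPM per kilobase of longest transcript, mean Acadm was above Acadl at 2 months (24.6 against 19.4). On that scale it was above Acadvl at 18 months (30.9 against 29.1).

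**Figure D3:**
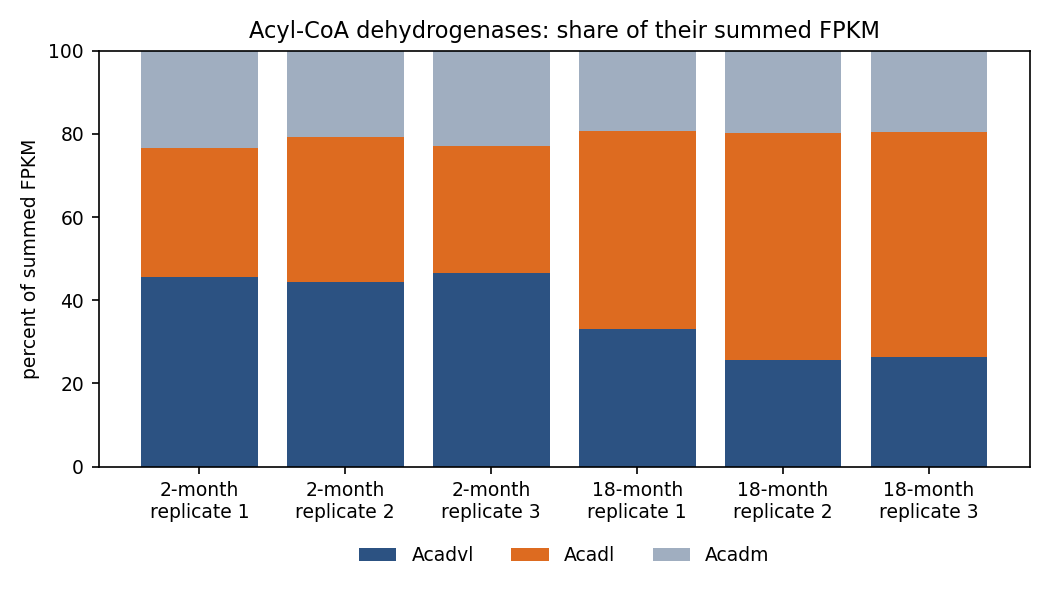
Share of the summed FPKM of Acadvl, Acadl and Acadm held by each gene, in percent, in each library. Acadl (orange) went from 30.5% to 35.0% at 2 months up to 47.8% to 54.4% at 18 months, and Acadvl (dark blue) from 44.4% to 46.5% down to 25.7% to 33.0%.

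Hadha and Hadhb encode the alpha and beta subunits of the trifunctional protein, which work in a complex of both. The genes stand head to head on chromosome 5, Hadha (ENSMUSG00000025745) at 30118304 to 30155162 on the minus strand and Hadhb (ENSMUSG00000059447) at 30155248 to 30184593 on the plus strand. The 85 bases between their GENCODE starts are shown because both genes start at their ends in that annotation. The RefSeq starts lie outside this gap. Of the 250 bases before the RefSeq start of Hadha, at 30154981 to 30155230, 182 are in annotated exons of Hadha. The 85 bases lie at chr5:30155163-30155247 in GRCm38.p6, written on the plus strand, from Hadha towards Hadhb, with GC boxes in capitals.
Hadha-Hadhb gap: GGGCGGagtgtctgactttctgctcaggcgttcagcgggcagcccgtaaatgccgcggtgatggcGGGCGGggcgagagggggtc

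Hadha had an FPKM of 6.66, 10.1 and 7.49 at 2 months and 13.0, 10.8 and 11.4 at 18 months. The ages did not overlap, but 2-month replicate 2 lay 68.2% of the way to the 18-month mean. The log2 fold change was 0.47 (SE 0.15, adjusted p = 0.0419), under the fold limit, between means of 8.07 ± 1.77 and 11.7 ± 1.14 FPKM (SD, n = 3). Without 2-month replicate 2 it was 0.63 (adjusted p = 0.00513). In each of the other 5 fits that left out a library, the adjusted p of Hadha was above the threshold, up to 0.131, and with TPM the log2 fold change was 0.12 (adjusted p = 0.667). Hadhb had 7.35, 8.01 and 7.23 FPKM at 2 months and 8.14, 9.02 and 8.92 at 18 months, a narrow spread in which 18-month replicate 1 barely exceeded 2-month replicate 2. Its log2 fold change was 0.13 (SE 0.10, adjusted p = 0.289), and -0.23 with TPM (adjusted p = 0.144).

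The subunits share a start region, so their ratio was compared as well. The ratio of Hadha to Hadhb FPKM was 0.906, 1.26 and 1.04 at 2 months and 1.59, 1.19 and 1.28 at 18 months, and the ages overlapped. The mean log2 ratio was 0.35 higher at 18 months (exact two-sided permutation p = 0.2, smallest possible 0.1), so that no difference could be shown with 3 libraries per age.

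**Figure D4:**
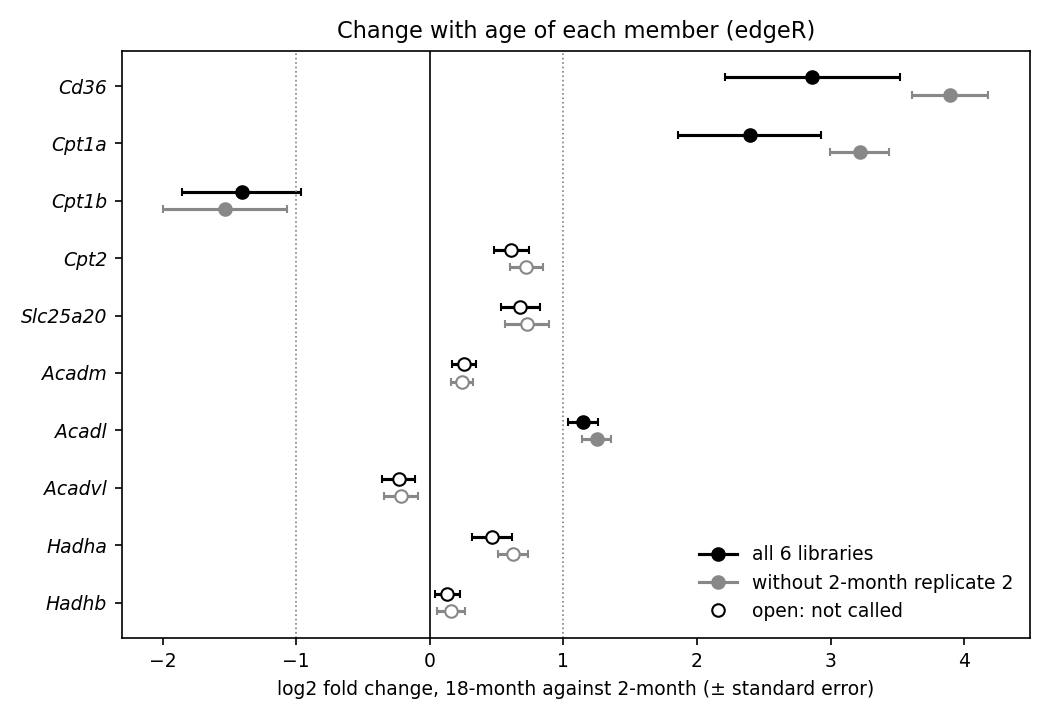
Log2 fold change of each gene at 18 months against 2 months, with its standard error, from edgeR with all 6 libraries (black) and without 2-month replicate 2 (grey), where filled points are called and dotted lines mark the fold limit. Leaving out that library moved Cd36 from 2.86 to 3.89 and Cpt1a from 2.40 to 3.22, and the called genes were Cd36, Cpt1a, Cpt1b and Acadl in both fits.

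Without 2-month replicate 2 the counts for the 10 were again 3 called higher and 1 lower, while over all genes tested 23.3% were called higher and 21.3% lower. Without 2-month replicate 3 only Acadl was called.

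Levels were compared between the genes in FPKM, which is scaled by length. At 2 months the order was Acadvl (22.9), Acadl (16.2), Acadm (11.2), Hadha (8.07), Hadhb (7.53), Cpt2 (5.22), Slc25a20 (3.39), Cpt1a (3.24), Cd36 (2.69) and Cpt1b (2.04). Hadha and Hadhb could not be ordered, since their libraries overlapped, and neither could neighbours among the last 4. At 18 months it was Acadl (37.7), Acadvl (20.6), Cd36 (20.1), Cpt1a (17.5), Acadm (14.2), Hadha (11.7), Hadhb (8.70), Cpt2 (8.37), Slc25a20 (5.70) and Cpt1b (0.808). Here Acadvl, Cd36 and Cpt1a overlapped in turn, as did Hadhb with Cpt2. In FPKM, Cd36 and Cpt1a were among the lowest 4 at 2 months and overlapped with Acadvl or each other at 18 months.

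The order depends on the length used. The length behind the deposited FPKM was close to the union of all annotated exons, which is 8730 bases for Hadha against 4017 in its longest transcript and 7642 for Cpt1a against 4317. In CPM per kilobase of longest transcript, Hadha had 20.1 ± 4.25 at 2 months and stood next to Acadl (19.4 ± 2.66), and Cpt1a reached 35.3 ± 3.10 at 18 months (SD, n = 3), after Acadl (44.9 ± 2.44) alone. On that scale Cd36, at 24.2 ± 1.99 at 18 months, came after Acadl, Cpt1a, Acadm, Acadvl and Hadha. Differences between the ages within a gene do not depend on this choice.

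The neighbours of the called genes over the 6 libraries were named by Pearson correlation in log2 CPM among 13899 genes, as a description. Those nearest to Cd36 were Rad51ap1, Tbxas1 and Stfa2l1, and those nearest to Cpt1a were Gp5, Stfa2l1 and Cracr2a, with r between 0.9997 and 0.9998. So many genes followed the same pattern, however, that 4269 genes had an r above 0.9 with Cd36, 4283 with Cpt1a and 4118 with Acadl. The nearest to Acadl were Pak1ip1, Hopx and Map2k2. Cpt1b had 218 such genes, led by C8g (0.987), Gm22753 (0.982) and Ro60 (0.980). Gp5, a gene of the megakaryocyte and platelet list, had 0, 134 and 4 counts at 2 months and 2806, 3915 and 3765 at 18 months.

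Around the 10 genes, 7 lists of fatty acid metabolism held 116 genes, of which 115 were in the table and 108 were tested. Of these, 25 rose, 26 fell and 57 were not called, which makes 47.2% called against 36.3% of all genes tested, with a median log2 fold change of 0.09. With TPM the split was 15 higher and 38 lower, with limma on log2(FPKM + 1) 26 and 17, and without 2-month replicate 2 it was 35 and 27 of 110 tested. The changes thus went both ways. With the other scalings of the counts, 25 to 27 genes were called higher and 26 lower.

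**Figure D5:**
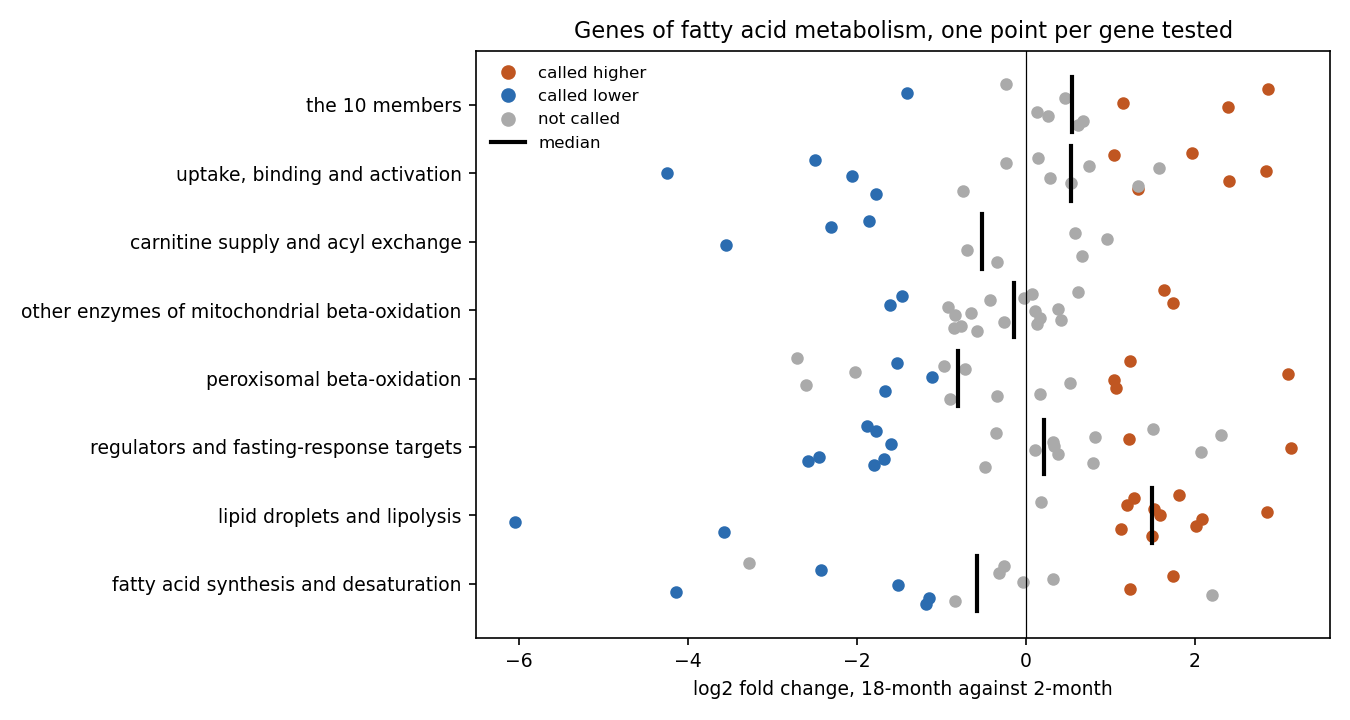
Log2 fold change at 18 months against 2 months of the 10 genes and of 7 lists of related genes, with 1 point per gene tested (orange, called higher; blue, called lower; grey, not called) and the median of each list as a bar. The list of lipid droplets and lipolysis stood at a median of 1.49, with 10 of 13 genes called higher and 2 lower. The other lists also held called genes of both directions, except carnitine supply, where called genes were only on the lower side.

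The list of uptake, binding and activation covers the steps on either side of CD36: transport proteins, cytosolic binding proteins and acyl-CoA synthetases. Of 17 tested, 5 rose and 4 fell, with a median of 0.53, beside 14.9% of all genes tested called higher and 21.3% lower. Without 2-month replicate 2 it was 9 and 4 of 19, when 23.3% of all genes tested were called higher. Fabp4, a fatty acid binding protein of fat cells, macrophages and vessels, had 3.60, 4.28 and 1.79 FPKM at 2 months and 17.5, 27.6 and 26.9 at 18 months, and rose by a log2 fold change of 2.84 (SE 0.37, adjusted p = 0.00269). The adipocyte list, which also holds Fabp4, took 0.00136% to 0.0171% of the counts at 2 months and 0.0160% to 0.0220% at 18 months. Fabp4 itself was the 1 gene called of the 5 tested in that list, and the part of fat cells in the result was not tested. Slc27a6, a fatty acid transport protein, went from 2.60 ± 1.72 to 0.138 ± 0.0622 FPKM (SD, n = 3), with a log2 fold change of -4.25 (SE 0.67, adjusted p = 0.00455). The most abundant gene of the list was Dbi, the acyl-CoA binding protein, at 27.2 ± 2.11 and 41.4 ± 2.48 FPKM (SD, n = 3), with a log2 fold change of 0.53 that was not called (adjusted p = 0.00681).

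Carnitine is made in the body and taken up by transporters. Of 8 genes tested in that list, none rose, 3 fell and 5 were not called, with a median of -0.52, and the 37.5% called were close to the 36.3% of all genes tested. At an unadjusted p under 0.05 edgeR had 3 genes higher. The count called higher was 1 with median-of-ratios factors, with total counts alone and with DESeq2. It was also 1 with limma on log2(FPKM + 0.1), with limma on log2(FPKM + 0.01) and without 2-month replicate 2. Bbox1, which makes carnitine in the last step of its synthesis, had 228, 94 and 217 counts at 2 months and 11, 25 and 20 at 18 months, with a log2 fold change of -3.55 (SE 0.59, adjusted p = 0.00537). With limma on log2(FPKM + 1) it was -0.68, under the fold limit. Aldh9a1, an aldehyde dehydrogenase of the same route, was the most abundant at 13.2 ± 2.34 and 22.1 ± 0.702 FPKM (SD, n = 3), with a log2 fold change of 0.66 under the fold limit (adjusted p = 0.0192).

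Among the other 20 enzymes of mitochondrial beta-oxidation 2 rose, 2 fell and 16 were not called, against 36.3% of all genes tested that were called, with a median of -0.14. Under TPM 2 were called higher and 7 lower. Etfb, the beta subunit of the flavoprotein that takes electrons from the acyl-CoA dehydrogenases, had 21.9, 29.5 and 19.2 FPKM at 2 months and 86.5, 78.5 and 82.3 at 18 months. It was both the largest rise and the most abundant gene of the list, with a log2 fold change of 1.74 (SE 0.15, adjusted p = 0.00117). Acot2, a mitochondrial thioesterase that splits acyl-CoA, went from 4.42 ± 1.35 to 1.54 ± 0.349 FPKM (SD, n = 3), with a log2 fold change of -1.60 (SE 0.33, adjusted p = 0.0104).

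Peroxisomes shorten very long and branched chains with enzymes of their own. Of 16 genes tested, 4 rose, 3 fell and 9 were not called, with a median of -0.81, which is 43.8% called against 36.3% of all genes tested. With TPM 1 was called higher and 8 lower, with limma on log2(FPKM + 1) it was 4 and 1, and without 2-month replicate 3 the count that rose was 2. Abcd2, a transporter that brings very-long-chain acyl-CoA into peroxisomes, had 0.716, 2.57 and 0.464 FPKM at 2 months and 9.73, 12.1 and 11.2 at 18 months. Its log2 fold change was 3.10 (SE 0.64, adjusted p = 0.0105), and 4.12 without 2-month replicate 2, which was the highest of its age here too. Amacr, a racemase for branched-chain substrates, fell from 2.66 ± 0.184 to 0.887 ± 0.263 FPKM (SD, n = 3) with a log2 fold change of -1.67 (SE 0.28, adjusted p = 0.00562), and was under the fold limit with limma on log2(FPKM + 1) (-0.96). The most abundant gene, Scp2, which encodes a thiolase and a sterol carrier protein, had 30.5 ± 2.82 and 66.2 ± 2.37 FPKM (SD, n = 3) and a log2 fold change of 1.04 (SE 0.11, adjusted p = 0.00181), just past the fold limit and under it without 2-month replicate 3 (0.99) and with TPM (0.68).

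The list of regulators and fasting-response targets holds the PPAR family, their partners and genes that fasting induces. Of 20 tested, 2 rose, 7 fell and 11 were not called, with a median of 0.22, where 14.9% of all genes tested were called higher and 21.3% lower. Without 2-month replicate 2 the counts were 6 and 7, and with limma on log2(FPKM + 1) they were 3 and 3 of 18. Ppargc1a, a coactivator of mitochondrial genes, was near the limit of detection, with 53, 73 and 27 counts at 2 months and 9, 7 and 14 at 18 months, and fell by a log2 fold change of -2.58 (SE 0.53, adjusted p = 0.0102). Its mean FPKM was under the filter of the limma fits, which did not test it, and with the replicate number as a block it was not called at a log2 fold change of -2.55 (adjusted p = 0.0599). Rxrb, a partner of the PPAR receptors and the most abundant of the list, had 14.0 ± 0.356 and 15.9 ± 0.303 FPKM (SD, n = 3) and a log2 fold change of 0.11 (adjusted p = 0.333).

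Genes of lipid droplets and lipolysis, which store fatty acids as triglyceride and release them, had the highest share of calls. Of 13 tested, 10 rose, 2 fell and 1 was not called, with a median of 1.49, where 14.9% of all genes tested were called higher and 21.3% lower. With TPM 7 were called higher and 2 lower. Without 2-month replicate 3 the counts were 8 and 2, as they were without 18-month replicate 1, 2 or 3. Dgat1 and Dgat2 encode the enzymes of the last step of triglyceride synthesis. Dgat2 had 1.40, 2.52 and 1.25 FPKM at 2 months and 15.3, 11.8 and 12.1 at 18 months, a log2 fold change of 2.85 (SE 0.27, adjusted p = 0.00142). Dgat1, the most abundant of the list, went from 8.51 ± 1.47 to 37.9 ± 1.35 FPKM (SD, n = 3), with a log2 fold change of 2.08 (SE 0.12, adjusted p = 0.000749). Cidea, a droplet protein of thermogenic fat, was called lower, with 134, 56 and 142 counts at 2 months and 6, 0 and 0 at 18 months (adjusted p = 0.0110).

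Synthesis runs opposite to oxidation. Of 14 genes tested, 2 rose, 5 fell and 7 were not called, with a median of -0.58, beside 14.9% called higher and 21.3% called lower among all genes tested. With limma on log2(FPKM + 1) 2 were called higher and 3 lower, of 13 tested. Me1, the malic enzyme that supplies NADPH, had 51.2, 23.6 and 39.4 FPKM at 2 months and 4.31, 1.26 and 1.41 at 18 months, with a log2 fold change of -4.14 (SE 0.64, adjusted p = 0.00417), and -4.90 without 18-month replicate 1. Scd2, a desaturase and the most abundant gene of the list, went from 66.4 ± 6.04 to 13.2 ± 5.38 FPKM (SD, n = 3), with a log2 fold change of -2.42 (SE 0.30, adjusted p = 0.00238). Elovl5, an elongase of polyunsaturated chains, rose from 5.36 ± 2.56 to 18.6 ± 0.540 FPKM (SD, n = 3), with a log2 fold change of 1.74 (SE 0.30, adjusted p = 0.00565).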

How the data were processed

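Poly(A) RNA of articular cartilage was sequenced from both ends as strand-specific libraries whose adapters carried molecular identifiers. The deposited table holds raw counts and FPKM for every gene, the latter scaled by the authors for gene length and library size. The submitters' processing notes name cutadapt 1.9, HISAT2 2.0.4, UMI-tools, StringTie 1.3.4d, DESeq2 and edgeR, and the genome build and annotation are not given in the sources used here. Gene coordinates of all 10 genes equal those of GENCODE M21, so positions are in GRCm38, and promoter windows come from RefSeq GRCm38.p6. Each sample was grouped by the age in its label, and 0 columns were left out.

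The test on counts was run with edgeR 4.0.16 under R 4.3.3 (TMM, filterByExpr, quasi-likelihood test, Benjamini-Hochberg adjustment over 20397 genes). It was also run on simulated counts in which a far smaller share of genes changed, which does not measure its performance on these data. Standard errors were derived from the F statistic, as the size of the log2 fold change over the root of F. Alternatives were median-of-ratios factors, total counts, scaling without the 100 most abundant genes, no filter, DESeq2 1.42.0, limma 3.58.1 on log2(FPKM + 0.1), pseudocounts of 1 and 0.01, TPM, a replicate block and leaving out each library. A fit with the counts of Gm44502 added to Cpt1b was chosen after seeing the data. The members and lists were chosen with earlier results of these data known.

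Named genes are the 10 members, the largest called rise, the largest called fall and the gene of highest mean FPKM in every list, and the 3 genes nearest to each called member by correlation, with a mean FPKM of at least 1. A gene that this rule names is not reported here.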

Additional observations from a re-analysis of the deposited data

How the results depend on the processing

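The libraries held 48171507 counts or more, but Cpt1b had only 131 to 543 of them, and each age had 3 libraries. Cd36, Cpt1a and Acadl kept their direction in every fit. Left-out libraries moved the log2 fold change of Cd36 between 2.47 and 3.89, of Cpt1a between 2.06 and 3.22 and of Cpt1b between -1.85 and -1.03, and the number of the 10 genes called between 1 and 4. Cpt1b lost its call without the filter on low counts (-1.37, adjusted p = 0.0614), with limma on log2(FPKM + 1) (-0.74), with the replicate block (-1.43, adjusted p = 0.0929) and with the counts of Gm44502 added (-0.43, adjusted p = 0.261). The last of these adds reads of an overlapping gene, and for the others the cause was not tested. With TPM, Acadl was at 0.79, Acadm at -0.10 and Hadhb at -0.23 against a median of -0.33 over all genes. Over the 7 lists, 25 genes higher and 26 lower became 15 and 38 with TPM and 26 and 17 with limma on log2(FPKM + 1), and the regulators called higher went from 2 to 5 with DESeq2. Without 2-month replicate 2, the share of all genes called higher went from 14.9% to 23.3%. The block changed no other call of the 10 genes by the fold rule, though Hadha had an adjusted p of 0.102. Deviations of equally numbered libraries correlated at 0.06, 0.07 and -0.05, so the numbers were not taken as pairs.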

Other observations

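Within the families around CD36, isoforms moved in opposite directions. These genes were picked after their values were seen, and the lists' counts stand in the results above. Of the long-chain acyl-CoA synthetases, which activate fatty acids, Acsl3 was the most abundant at 2 months together with Acsl5, at 12.5 ± 2.80 and 12.1 ± 1.9 FPKM (SD, n = 3). At 18 months Acsl3 was at 2.36 ± 0.319 FPKM, a log2 fold change of -2.50 (SE 0.24, adjusted p = 0.00146), and Acsl5 at 31.9 ± 5.02 FPKM, a log2 fold change of 1.32 (SE 0.14, adjusted p = 0.00181). Acsl1 rose from 2.88 ± 0.946 to 15.9 ± 1.42 FPKM, a log2 fold change of 2.40 (SE 0.22, adjusted p = 0.00134). All 3 calls held in each fit that left out a library. With TPM, Acsl5 was under the fold limit at 0.96.

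Of the binding proteins, Fabp5 rose from 2.26 ± 0.290 to 9.28 ± 1.32 FPKM (log2 fold change 1.96, adjusted p = 0.000901), while Fabp3, the form of heart and muscle, fell from 3.04 ± 0.863 to 0.931 ± 0.323 FPKM (log2 fold change -1.77, adjusted p = 0.0132). The ages did not overlap for either gene. Cpt1c, the isoform of CPT1 known from brain, fell from 4.70 ± 0.301 to 1.002 ± 0.0488 FPKM (SD, n = 3), with a log2 fold change of -2.30 (SE 0.13, adjusted p = 0.000749), and was called lower in each of the 6 fits that left out a library. At 2 months its level in every library, 4.51 to 5.05 FPKM, was above that of Cpt1b, which was 1.51 to 2.93 FPKM. That comparison carries the uncertainty of the overlapping Gm44502 and depends on the length used for FPKM.

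Acaa2, the thiolase that ends a round of mitochondrial beta-oxidation, had 7.06, 18.5 and 8.59 FPKM at 2 months and 34.1, 35.8 and 39.4 at 18 months, with 2-month replicate 2 again the highest of its age. Its log2 fold change was 1.63 (SE 0.34, adjusted p = 0.0114), and 2.12 without that library. Acadsb, a dehydrogenase of short branched chains, went the other way, from 13.8 ± 1.91 to 5.32 ± 1.01 FPKM (SD, n = 3), with a log2 fold change of -1.46 (SE 0.20, adjusted p = 0.00293).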
